A study of Homo sapiens with 13 samples.

Results

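The 10 genes of the MYC family and MAX network, MYC, MYCN, MYCL, MAX, MXD1, MXD3, MXD4, MXI1, MNT and MGA, were examined for accessible chromatin in 2 small cell lung cancer (SCLC) cell lines. They were chosen by name from GENCODE release 44 on hg38, where 20015 protein-coding genes served as background. Each gene was read over the 1 kb to either side of its transcription start site (TSS), over its body, and over its locus, meaning the body with 100 kb to either side. The loci held 265 of the 206927 open regions listed for H82 and 232 of the 174093 listed for H146.

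MYC, MYCN and MYCL are transcription factors that pair with MAX and activate genes at the E-box CACGTG, and SCLC tumours are known for amplification of any of these genes. MXD1, MXD3, MXD4, MXI1 and MNT pair with the same partner at the same boxes and repress, recruiting the SIN3 corepressors. MGA, a very large protein, pairs with MAX and belongs to the non-canonical Polycomb complex PRC1.6.

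H82 and H146 cells, both wild type by their labels, were profiled by ATAC-seq, which reads open chromatin from the cuts that a transposase leaves in it. The study assigns H82 to the NEUROD1 subtype of SCLC. There were 3 untreated and 3 FHD-286-treated H82 samples, and 4 untreated and 3 FHD-286-treated H146 samples. In both lines FHD-286 was given at 100 nM, and treatment lasted 14 days. This compound blocks the ATPase subunits of the SWI/SNF remodellers, SMARCA4 and its paralog SMARCA2. The deposited lists hold no sample: each joins the regions called in any untreated or treated sample of a line. Every value below is therefore 1 value per line, without replicates or a test, and an effect of FHD-286 could not be read.

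The H82 list held 1.19 times as many regions as the H146 list and covered 167 Mb against 139 Mb. Line, number of samples, sequencing depth and DNA copies per cell cannot be told apart in such lists, and the depth was unknown. H82 also held 13 regions of 50 kb or wider, 3 on chromosome 8 and 10 on chromosome 14, against 0 in H146. The line markers differed at NEUROD1, where H82 had a region of 7865 bp over the TSS and H146 had 0. A further 5 neuroendocrine genes (INSM1, SYP, CHGA, NCAM1 and DLL3) were open at the TSS in both lines. Among 7 genes of other SCLC states and cell types, 5 were open at the TSS in both, KRT5 only in H146, and PTPRC, a leukocyte gene, in neither.

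The first question was whether the start sites of the network were open in both lines. They were at 9 of 10 genes, and at the remaining gene, MXD1, neither line had a region within 1 kb. No gene of the 10 was open in 1 line alone, a state found at 5.1% of all protein-coding genes for H82 and at 1.86% for H146. Across all genes, 75.4% were open in both lines and 17.7% in neither. The MXD1 record begins 17421 bp upstream of the start of its canonical transcript, and there both lines had a region, of 2126 bp and 2163 bp for H82 and H146. The second MGA promoter, at the canonical start 39271 bp inside the gene record, was likewise open in both lines, with regions of 2182 bp and 2271 bp.

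The alternative promoters gave the same picture with a pair of exceptions. MXI1 has 37 distinct annotated starts, of which 36 lay within 1 kb of an H82 region and 35 within 1 kb of an H146 region. All 4 starts annotated for MXD4 lay near a region in H146 and 3 of them in H82. All 14 starts of MYC and all 14 of MAX were covered in both lines. Restricted to starts of protein-coding transcripts, 0 starts of any of the 10 genes were open in 1 line alone.

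The E-boxes of these open promoters are shown because they are the sites to which the proteins of the network bind, and they lie at the network's own genes. The word CACGTG occurred 10 times within 1 kb of the TSS, at 5 genes: MAX, MXD3, MXD4, MNT and MGA. At these 5 genes the region over the TSS filled most or all of this window in both lines, so a match there was likely to lie in one. All 10 matches fell inside a region of both lines. Of these, 9 are given 5′ to 3′ on the strand of the gene, from hg38, with CACGTG in capitals and 12 bases to either side.
MAX chr14:65102849-65102878 (-): tccagctccctcCACGTGtcctgtcttccc
MAX chr14:65103250-65103279 (-): acgctggagcctCACGTGagtagctgagta
MXD3 chr5:177312264-177312293 (-): ccccgcggcaccCACGTGcagcggctgggc
MXD4 chr4:2262330-2262359 (-): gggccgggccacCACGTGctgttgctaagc
MNT chr17:2400628-2400657 (-): aacaacagagagCACGTGgtgagcggccgg
MNT chr17:2401236-2401265 (-): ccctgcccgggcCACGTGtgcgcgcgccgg
MGA chr15:41621468-41621497 (+): gcttgcgaccagCACGTGacccgaactggc
MGA chr15:41621725-41621754 (+): gcgctgaggcgtCACGTGgacgccacagcc
MGA chr15:41622051-41622080 (+): ggcgtggcgggtCACGTGccttcgactgcg

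MAX and MGA each carried 3 of these boxes, and MNT 2. The MAX boxes shown stood at -570 and -169 bp from the TSS, counted along the gene, and the 3 MGA boxes at 348, 605 and 931 bp. MYC, MYCN, MYCL and MXI1 had 0 matches in this window, and MXD1 had 0 at the start of its record and 1 at its canonical start. In all, 28.7% of 20015 promoters of the same length held the word. The related form CACGCG was present at 7 of the 10 genes and at 38.8% of all promoters, with 7 matches at MGA and 3 at MNT. A match is a string of letters and not a measured binding site.

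The regions over the TSS were wide. Among the 9 genes that had one, the median width was 4579 bp in H82 and 4428 bp in H146, against 1790 bp and 1721 bp for all genes with such a region. The region was at least 1.5 times as wide in H82 at 2 of 9 genes, MYC and MYCL, as it was at 13.2% of 15088 genes open in both lines. It was at least 1.5 times as wide in H146 at 0 of 9, against 6.91% of all such genes.

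**Figure D1:**
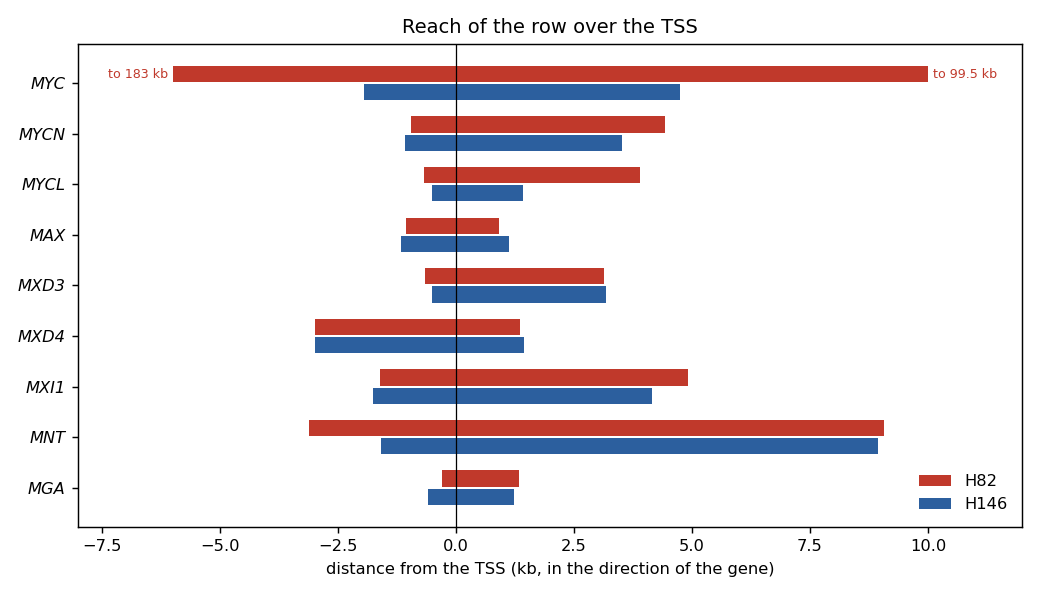
Reach of the region over the TSS in kb along the gene for H82 (red) and H146 (blue), 1 bar per line and gene, for the 9 genes with such a region. The H82 bar at MYC runs off both ends of the axis, to 182568 bp upstream and 99468 bp downstream, and that at MYCL reaches 3901 bp downstream against 1414 bp in H146.

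MYC, the founding member of the family, lay whole inside a single H82 region of 282 kb on chromosome 8 (127552866 to 127834902). In H146 the region over its TSS was 6688 bp wide, reaching 1940 bp upstream and 4747 bp into the gene (127733494 to 127740181). MYCN, the paralog active in neural development, had regions of 5401 bp in H82 and 4608 bp in H146, which shared 4487 bp. Together with a separate H146 region of 234 bp, the H146 regions overlapped 87.4% of the H82 bases. MYCL, first found amplified in SCLC, had regions of 4579 bp and 1912 bp. The H146 region at MYCL lay inside the H82 region, which also took in a separate H146 region of 380 bp further downstream.

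The remaining regions over a TSS were nearly alike. At MAX, the shared partner, they measured 1967 bp (H82) and 2289 bp (H146). The MXD3 regions measured 3787 and 3695 bp, the MXD4 regions 4342 and 4428 bp and the MXI1 regions 6529 and 5899 bp. The MXD4 regions had the same upstream edge, 2987 bp before the TSS, in both lines. MNT, a repressor found in most cell types, had the widest region of the network in H146 at 10521 bp, and 12187 bp in H82. Its H82 region began 1530 bp further upstream. At MGA the widths were 1633 and 1834 bp.

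Most of the 10 gene bodies were covered to a greater share than those of most genes. The median over the 10 genes was 32.7% of the body in H82 and 34.3% in H146, with 7.13% and 5.85% for all protein-coding genes. The shares ranged from 2.70% for MAX to 100% for MYC in H82, and from 2.33% for MAX to 68.7% for MYC in H146. The 3 lowest shares in both lines were those of MAX, MGA and MXD1, genes of 96.5, 152 and 45.3 kb. In H82 they stood at the 22.3rd, 24.9th and 46.8th percentiles of all genes. MYC, MYCN and MYCL are only 7.52, 6.46 and 6.83 kb long, and no background of genes of like length was drawn. H82 was higher at 8 of 10 genes, against 51.9% of all genes. It was at least 1.5 times higher in H82 at MYCL alone, against 26.7% of all genes, and at least 1.5 times higher in H146 at MXD4 alone, against 9.8%.

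MYCL had the largest H82 excess over the body among the 10 genes, with 74.8% covered against 26.3%. Its exons were covered to 73.1% in H82 and 24.0% in H146. The bases covered in H82 alone formed stretches of 1529, 578 and 1209 bp between 1415 and 5790 bp downstream of the TSS, and the last of these was a separate H82-only region lying whole in an exon. MXD4 went the other way, with 22.5% of the body in H82 and 42.2% in H146. Its excess came mainly from 2 places. The first was an H146-only region of 1147 bp centred 6.14 kb downstream of the TSS (chromosome 4, 2255398 to 2256544). The second was the part inside the gene of a 1646 bp stretch that crosses the 3′ end. The region of 1147 bp holds no exon base of MXD4. Of the 1646 bp, 72.8% is exonic and the rest lies beyond the gene.

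In the other bodies the lines differed less. MYCN was covered to 68.7% in H82 and 58.2% in H146, MNT to 78.8% and 65.2%, and MXD3 to 42.8% and 47.7%. At MNT the lines differed more over exons, with 64.2% and 42.4% covered, than over introns, with 94.2% and 89.1%. MXI1 had 9 regions in H82 and 11 in H146 over its body, with 18.3% and 15.7% covered, and each line had regions that the other lacked, 2 in H82 and 4 in H146. The widest of them, 1896 bp in H82, was centred 77.3 kb downstream of the TSS, near the 3′ end of the gene.

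Counted over the body and 100 kb to either side, regions were more numerous in H82 at 7 of 10 genes, as at 65.6% of all protein-coding genes. The median was 26.5 regions in H82 and 21.5 in H146, close to the 25 and 20 of all genes. At least 1.5 times as many regions were listed in H82 at 3 genes (MXD1, MNT and MGA), against 28.4% of all genes, and in H146 at 1 gene (MYC), against 3.81%. Divided by the regions of the same chromosome, the ratios of MXD1, MNT and MGA were 1.43, 1.19 and 1.32, each under 1.5. The share of bases covered was at least 1.5 times higher in H82 at 5 genes (MYC, MYCL, MXD1, MNT and MGA), against 27.5% of all genes, and in H146 at 0, against 3.65%. The median share was 11.5% in H82 and 7.68% in H146, where all genes had 7.40% and 6.04%. With 10 genes and 1 value per line, these counts are a description of the network and not a test of it.

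**Figure D2:**
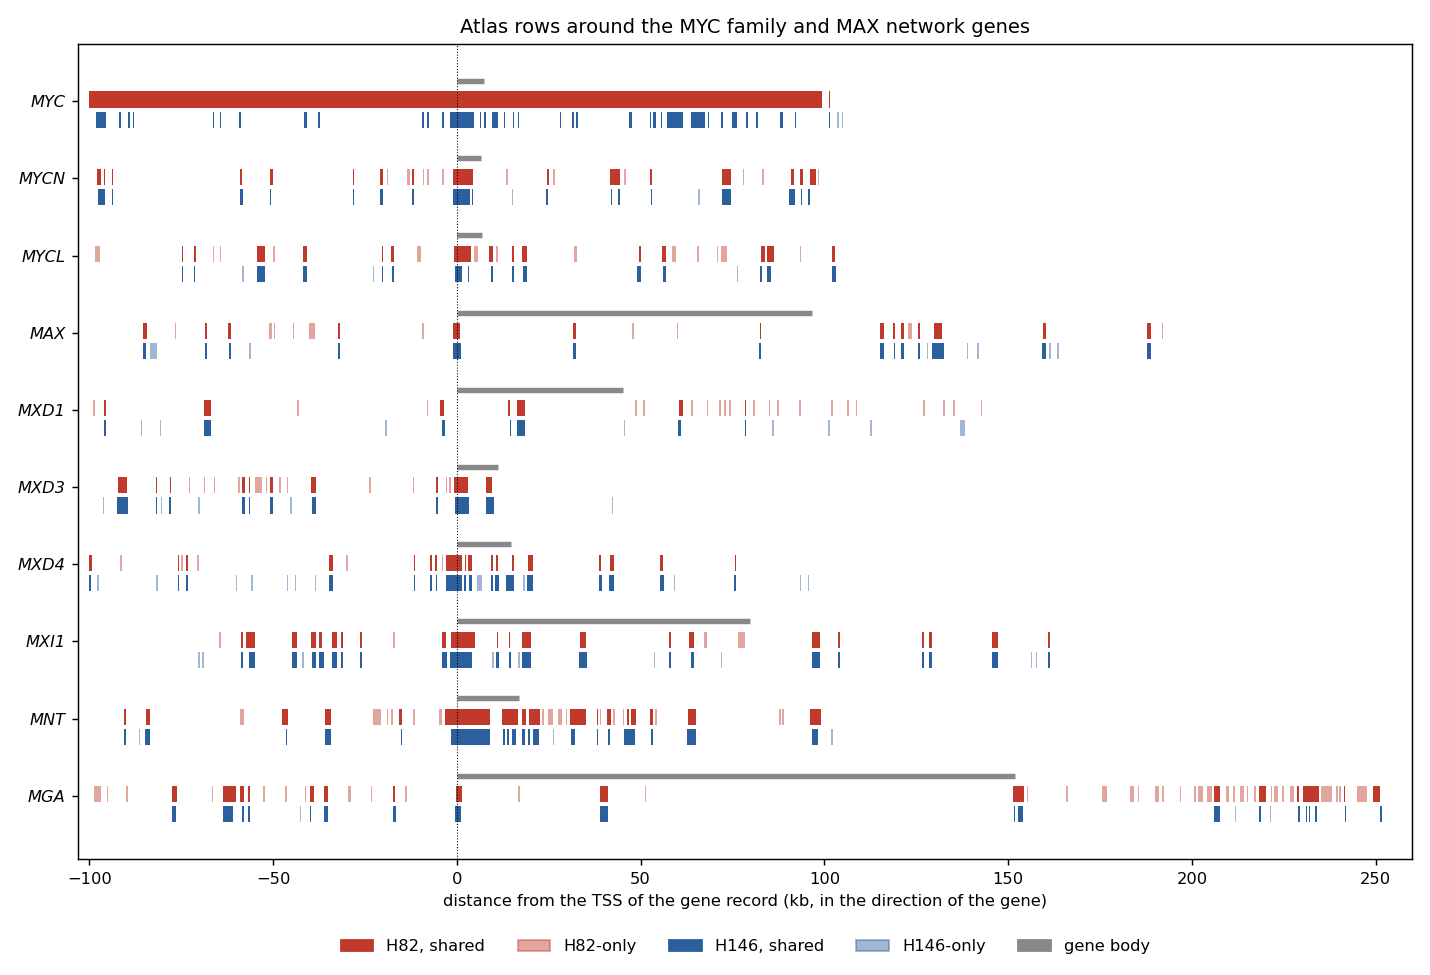
Listed regions along each locus, as distance from the TSS of the gene record in kb, with H82 (red) above H146 (blue), pale where the other line has no overlapping region, and the gene body as a grey bar. MYC lies inside a single H82 block, and the H82-only regions of MGA gather beyond the 3′ end of the gene.

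**Figure D3:**
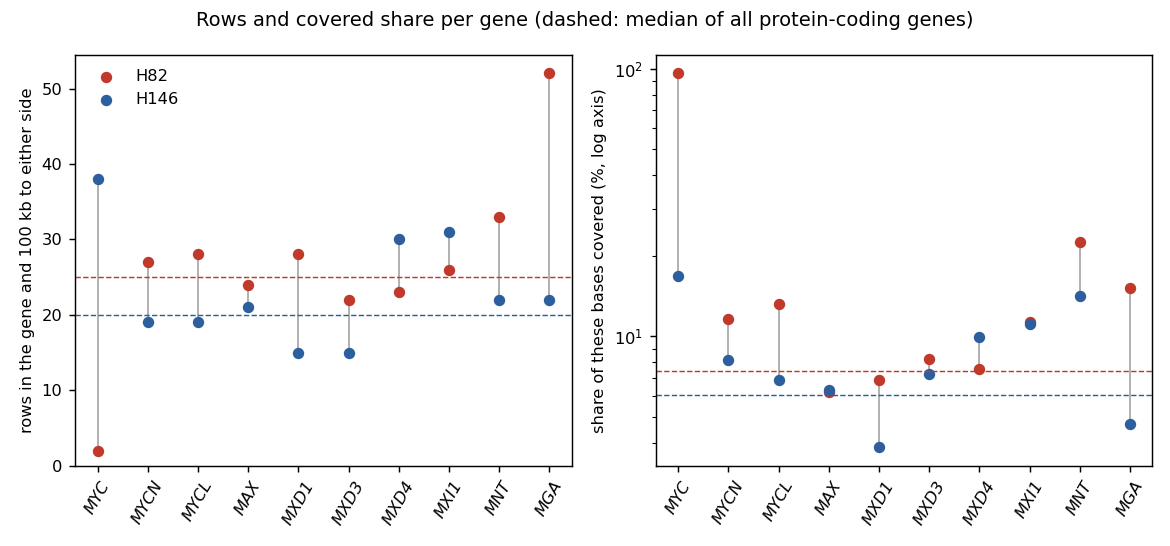
Number of regions (left) and share of bases covered (right, log axis) over each gene and 100 kb to either side in H82 (red) and H146 (blue), 1 value per line; dashed lines are the medians of all protein-coding genes. At MYC the number was 2 in H82 and 38 in H146 while the share was 96.3% and 16.8%.

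MYC had the most divergent locus. H82 listed 2 regions where H146 listed 38, while H82 covered 96.3% of the bases and H146 16.8%. The difference in share stood at the 99.96th percentile of all protein-coding genes and the difference in number at the 0.0400th percentile. Both come from the 282 kb H82 region, which reached from 182568 bp upstream to 99468 bp downstream of the TSS. Inside it lay 48 H146 regions, which covered 14.8% of its length. Another H82 region of 527 kb ended 514 bp before it, so that the pair formed a nearly unbroken block, in which H146 had a further 23 regions.

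Within the MYC locus the H146 regions were spread on both sides, 13 upstream and 24 downstream. The widest apart from that over the TSS were 4326 bp at 59.3 kb downstream, over the TSS of the non-coding gene PVT1, 3925 bp at 65.6 kb, also in PVT1, and 2777 bp at -96.9 kb. Of the 38 regions, 36 overlapped an H82 region, and the 2 that did not lay 104 and 105 kb downstream, just past the end of the H82 block. Beyond that end the covered share was higher in H146. Over the next 100 kb, H82 had 22 regions and H146 had 37, which covered 11.9% and 30.0% of the bases. All 22 H82 regions there overlapped an H146 region.

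H82 is known as a line with an amplified MYC gene, and copies were not counted here, so open chromatin per copy and number of copies cannot be told apart. The remaining H82 region of 50 kb or wider on chromosome 8 measured 506 kb and lay outside the MYC locus (96590850 to 97097010). MAX, on chromosome 14, lay in none of the 10 wide H82 regions of that chromosome. Without the regions of 50 kb or wider, the covered share of the MYC locus in H82 was lower than in H146 by 16.6 percentage points. Within such a block, single open sites could not be resolved in H82.

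MYCN and MYCL, the other genes of the family, both had more regions in H82. MYCN had 27 H82 and 19 H146 regions, with 11.6% and 8.14% covered, and MYCL had 28 and 19, with 13.2% and 6.90%. The ratios of number, 1.42 and 1.47, have 95% counting intervals of 0.761 to 2.70 and 0.794 to 2.79, and both hold the whole-list ratio of 1.19. Divided by the regions of the same chromosome, the ratios of MYCN and MYCL were 1.09 and 1.01. At MYCN the surplus lay on both sides, with 14 H82 and 8 H146 regions upstream and 13 and 10 downstream. The non-coding genes MYCNOS and MYCNUT, where they overlap upstream, hosted 5 regions in H82 and 1 in H146, and GACAT3 downstream hosted 6 and 3. At MYCL, TRIT1, a tRNA-modifying enzyme gene downstream, hosted 4 and 2 regions in its body.

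The widest H82-only regions near MYCN, MYCL and MAX and the widest H146-only region near MYCN are shown because each is the widest region of the named line at that gene that no region of the other line overlaps, and all lie outside promoters. Given is the whole region, or its central 300 bases where it is wider, on the plus strand of hg38, with capitals marking any of 6 words on either strand: CACGTG, its variant form CACGCG, the E-box form CAGCTG, the NEUROD1 form CAGATG, the OTX2 word TAATCC and the FOXA word TGTTTAC.
MYCN, H82-only, chr2:15927236-15927535 (+): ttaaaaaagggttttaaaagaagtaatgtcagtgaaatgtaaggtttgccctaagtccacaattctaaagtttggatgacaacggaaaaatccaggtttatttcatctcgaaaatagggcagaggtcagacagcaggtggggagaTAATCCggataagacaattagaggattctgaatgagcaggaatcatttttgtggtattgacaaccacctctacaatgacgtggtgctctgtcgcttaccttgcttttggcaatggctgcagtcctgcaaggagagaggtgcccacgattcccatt
MYCN, H146-only, chr2:15955582-15955881 (+): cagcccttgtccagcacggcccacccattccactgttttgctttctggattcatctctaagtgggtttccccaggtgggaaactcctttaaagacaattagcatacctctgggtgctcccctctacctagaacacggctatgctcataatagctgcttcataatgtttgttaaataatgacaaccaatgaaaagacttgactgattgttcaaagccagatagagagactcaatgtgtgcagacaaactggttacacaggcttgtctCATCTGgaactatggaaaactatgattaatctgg
MYCL, H82-only, chr1:39829359-39829658 (+): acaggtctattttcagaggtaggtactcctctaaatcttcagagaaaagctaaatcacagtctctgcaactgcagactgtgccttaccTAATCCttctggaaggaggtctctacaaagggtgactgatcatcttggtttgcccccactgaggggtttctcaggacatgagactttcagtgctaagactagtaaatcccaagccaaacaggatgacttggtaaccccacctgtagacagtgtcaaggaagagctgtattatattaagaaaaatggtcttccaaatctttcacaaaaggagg
MAX, H82-only, chr14:65142056-65142355 (+): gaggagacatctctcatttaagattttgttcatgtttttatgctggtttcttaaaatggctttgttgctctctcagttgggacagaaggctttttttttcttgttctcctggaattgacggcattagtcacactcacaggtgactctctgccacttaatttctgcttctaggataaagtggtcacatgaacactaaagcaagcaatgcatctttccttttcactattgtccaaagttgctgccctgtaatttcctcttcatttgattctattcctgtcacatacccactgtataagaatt

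The MYCN pair lay at -13.2 kb (1017 bp, H82-only) and 15.2 kb (381 bp, H146-only) from the TSS, counted along the gene. The H82-only region at MYCL measured 1632 bp and lay at 72.7 kb, and that at MAX measured 1616 bp and lay at -39.5 kb, upstream of the gene. In the H82-only regions at MYCN and MYCL the printed centre held 1 TAATCC match each. The centre at MAX held 0 of the 6 words, whereas the whole region held 1 CACGTG, 4 CAGATG and 2 TAATCC matches.

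MAX itself had nearly the same coverage in both lines. Its locus held 24 H82 and 21 H146 regions, which covered 6.20% and 6.31% of it. In the gene body of 96.5 kb the lines shared regions at the TSS and at 32.1 and 82.5 kb downstream, and H82 had a further pair at 47.8 and 60.1 kb. Of the regions of each line, 10 of 24 were H82-only and 7 of 21 H146-only.

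The repressors fell into both directions. MXD1, induced in many cells as they differentiate, had 28 H82 and 15 H146 regions, with 6.87% and 3.86% covered. The upstream flank held 6 regions in each line and the downstream flank 20 and 7. Most of the surplus lay in PCBP1-AS1, a non-coding gene, with 16 regions in H82 and 5 in H146. MXD3 had 22 and 15 regions, with 8.25% and 7.23% covered, most of them in its gene-dense upstream flank, where RGS14 alone hosted 7 in H82 and 3 in H146 within its body. Among regions of at least 500 bp the MXD3 ratio turned from 1.47 to 0.875. The counting intervals of both ratios, 0.964 to 3.76 for MXD1 and 0.727 to 3.04 for MXD3, hold 1.

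MXD4 and MXI1 had fewer regions in H82. MXD4 had 23 in H82 and 30 in H146, with 7.57% and 9.96% covered, so that MXD4 stood at the 7.44th percentile of all genes in its difference of share. MXI1, which like the MXD proteins represses through MAX, had 26 and 31 regions, yet 11.4% and 11.1% of its locus was covered. Their counting intervals, 0.425 to 1.37 for MXD4 and 0.478 to 1.46 for MXI1, hold 1 and also the whole-list ratio of 1.19. Divided by the whole-list ratio, the ratios of MXD4 and MXI1 were 0.645 and 0.706. Their differences in number stood at the 5.70th and 9.06th percentiles of all genes. Against either ratio, neither difference in number is larger than counting error.

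MNT had 33 H82 and 22 H146 regions, a ratio of 1.5 with a counting interval of 0.849 to 2.70 that holds 1, and 22.5% and 14.1% of the locus was covered. Its neighbours carried the difference. SGSM2, downstream, hosted 15 regions in H82 and 7 in H146 in its body, and METTL16, an RNA methyltransferase gene upstream, 11 and 6. Within the gene and 10 kb to either side the order was reversed, with a ratio of 0.875, while the covered share there was higher in H82 by 18.5 percentage points. Inside the gene, 3 separate H146 regions between 12.8 and 15.4 kb downstream of the TSS corresponded to a single H82 region of 4359 bp, so a lower count went with more covered bases.

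MGA had the largest surplus of regions in H82, 52 against 22, a ratio of 2.36 with a counting interval of 1.41 to 4.09 that does not hold the whole-list ratio of 1.19. H82 regions covered 15.1% of the locus and H146 regions 4.73%. Chromosome 15 as a whole had 1.80 times as many regions in H82, and that ratio lies within the interval. The gene itself took little part, with 5 and 3 regions and 3.03% and 2.57% of the body covered. In the 100 kb beyond its 3′ end, H82 had 31 regions and H146 12, with 33.5% and 5.64% covered. MAPKBP1 hosted 11 regions in its body in H82 and 0 in H146, and SPTBN5, a spectrin gene, 9 and 6, among them H82-only regions of 2975 and 2913 bp.

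**Figure D4:**
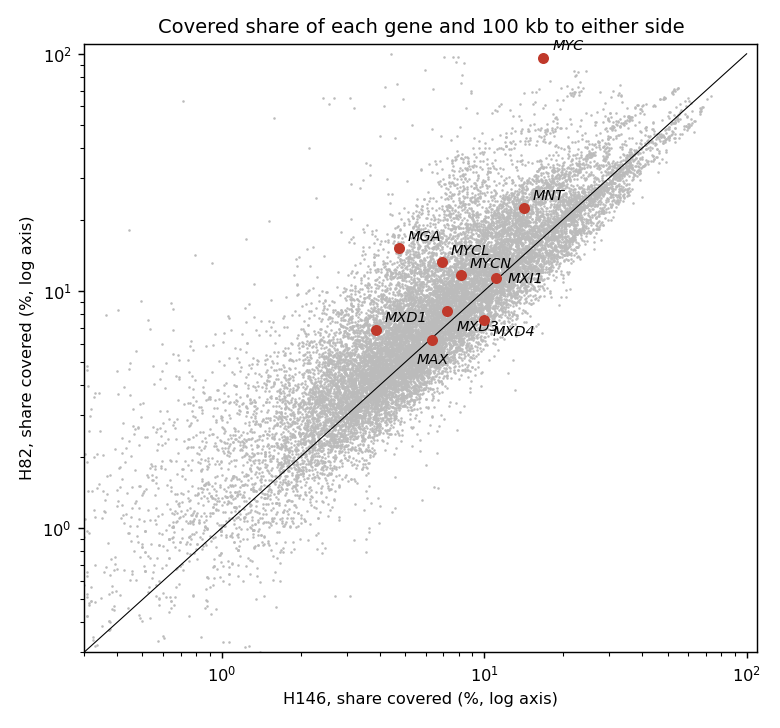
Share of bases covered over each protein-coding gene and 100 kb to either side in H146 (x) and H82 (y), both on log axes, grey for all genes and red for the 10 network genes, with the line of equality. Drawn are 19627 genes, and 388 with a share under 0.3% in either line fall outside the axes; MYC and MGA lie furthest above the line among the 10, and MXD4 lies below it.

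Regions present in 1 line alone made up 128 of the 265 H82 regions at the 10 genes, or 48.3% (exact binomial 95% interval 42.1 to 54.5), where the whole H82 list had 40.7%. In H146 they made up 54 of 232, or 23.3% (18 to 29.3), where the whole list had 29.5%. Once MGA was left out, the interval of each line held its whole-list value. The H82 share was then 43.2% (36.4 to 50.1) and the H146 share 24.3% (18.6 to 30.7). Without MYC, whose H82 block overlaps most H146 regions, the H146 share was 26.8% (20.7 to 33.6), and that interval holds the whole-list value too. The H82 share without MYC was 48.7% (42.5 to 54.9), which does not. The remaining genes were not left out in turn. Intervals cover counting error only.

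Line-only regions were narrower than shared ones, as they were on average in the whole lists, and few lay at promoters. The whole H82 list had 122719 shared regions over 122634 kb and 84208 H82-only regions over 44413 kb. The whole H146 list had 122790 shared regions over 119527 kb and 51303 H146-only regions over 19104 kb. The share of line-only regions at the promoters of all genes is not given here. At the 10 genes the median width of line-only regions was 382 bp in H82 and 292.5 bp in H146, where the shared regions had medians of 911 and 676.5 bp. Of the 14 H82 regions within 1 kb of any annotated start of the 10 genes, 0 were H82-only, and of the 15 H146 regions 1 was H146-only, the MXD4 region of 1147 bp described above. In H82, 64 of the 128 H82-only regions lay in the body of another gene, 53 between protein-coding genes, 7 in the bodies of the 10 genes and 4 at promoters of other genes. MXD1 had the highest share of them, 21 of 28 in H82 and 8 of 15 in H146, and MXI1 the lowest for H82 among genes other than MYC, with 4 of 26.

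**Figure D5:**
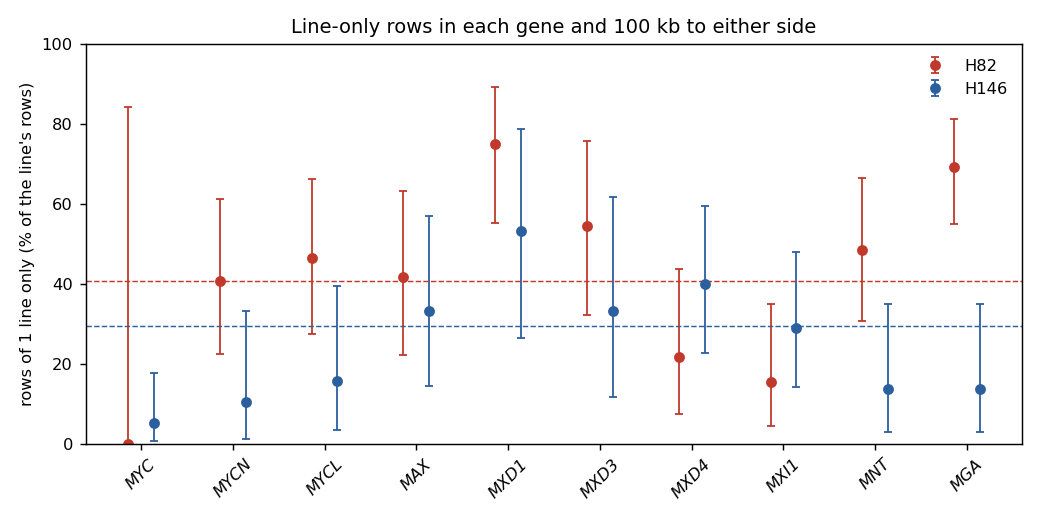
Share of each line's regions without an overlapping region in the other line, per gene with its 100 kb flanks, in H82 (red) and H146 (blue), with exact binomial 95% intervals; dashed lines are the whole lists. MGA and MXD1 stand highest in H82, at 36 of 52 and 21 of 28, and MYC at 0 of 2 has an interval up to 84.2%.

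Binding words were divided between shared and line-only regions at the 9 genes other than MYC. CACGTG occurred 0.273 times per kb in shared H82 regions (exact Poisson 95% interval 0.202 to 0.360) and 0.0533 times per kb in H82-only regions (0.0145 to 0.136), where the whole H82 list had 0.182 and 0.140. In H146 it occurred 0.257 times per kb in shared regions (0.184 to 0.350), and the H146-only regions held 0 matches, for which the exact upper bound is 0.188 per kb. Shared regions include the promoters and line-only regions nearly none, so word and place cannot be told apart here. TAATCC, the OTX2 word, occurred 0.959 times per kb in H82-only regions (0.750 to 1.21) and 0.462 times per kb in shared H82 regions (0.368 to 0.572), with 1.26 and 0.469 in the whole list. The FOXA word TGTTTAC occurred 2 times in the 75.1 kb of H82-only regions, 0.0266 per kb (0.00322 to 0.0962), where all H82-only regions had 0.130.

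By place, CACGTG was found in 11 of 32 H82 regions of these loci within 1 kb of the start of a protein-coding gene record and in 8 of 29 in H146, 34.4% and 27.6%, where 31.0% and 30.3% of all regions so placed held it. In the other regions it was found in 29 of 233 and 25 of 203, 12.4% and 12.3%, against 9.27% and 9.22% of all such regions. The exact binomial intervals of all 4 shares hold the whole-list values.

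Most partners of the network were open at the TSS in both lines, as were 75.4% of all protein-coding genes. This held for 3 of 3 genes of the MLX branch (MLX, MLXIP and MLXIPL, which form a parallel network), for 10 of 10 PRC1.6 partners of MGA, 10 of 10 coactivators of MYC, 8 of 8 genes of MYC protein turnover and 12 of 12 targets of MYC. Among 6 genes of the SIN3 corepressor, 5 were open in both, and HDAC2, a histone deacetylase gene, had 0 regions within 1 kb of the start of its record in either line. Of 10 neighbouring genes of MYC, MYCN and MYCL found in the annotation, 9 were open in both. POU5F1B, a POU5F1-like retrogene upstream of MYC, was covered in H82 alone, by the 527 kb region.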

How the data were processed

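ATAC-seq libraries of 13 samples were made by the study from cryopreserved H82 and H146 cells. The authors trimmed reads with Trim Galore 0.4.4, aligned them to hg38 with Bowtie2 2.3.4, removed duplicates with Picard, called regions per sample with MACS2, removed blacklisted regions and merged regions within 500 bp into 1 list per line. For H146, 3 controls formed one sequencing batch, and 1 control with the 3 treated samples the other; the labels do not say which control. Merging joins neighbouring sites, and more or deeper libraries can give a longer list, which was not tested here. Whether cut sites were shifted for Tn5 is not given in the sources used here.

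The deposited values are starts, counted from 0, and ends in bp of each region, a unit of another kind than counts or signal, with no score. Each list's region on the mitochondrial genome was left out, and the number of per-sample columns not used was 0. Chromosomes 1 to 22, X and Y were used, and coordinates are 1-based. Every region ended within its hg38 chromosome.

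Regions counted in a window with at least 1 bp in it and were shared with at least 1 bp of overlap. A gene differed at 1.5 times, with at least 3 regions or 1% in the higher line. Ratios have exact binomial intervals and word densities exact Poisson intervals at 95%. Scripts used Python 3.11.15, numpy 2.4.6, scipy 1.17.1 and pysam 0.24.0. The interval functions were tested on simulated data, and counts differed from bedtools 2.31.1 at 0 of 10 loci in each line. All 10 genes are named, with the widest line-only region of each line near them where it bears on a result, the genes that host those regions, and listed pathway genes that differ at the TSS. Neighbours whose surplus is given were picked after their values were seen. The genes and lists were chosen with earlier results of these data known. Sequences were read from the hg38 reference. Some items are not reported here. CCAT1 and MYCNUN had no record under those names. Alternatives were other windows, width limits, overlap rules and scalings.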

Additional observations from a re-analysis of the deposited data

How the results depend on the processing

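No paired analysis was possible because each list pools all samples of a line, and for the same reason no sample could be left out. Of the summary values over the 10 genes, 44 stayed near the reported value under an alternative (within its interval or spread, or 1.5 times for a count) and 11 moved. With 10 kb to either side, the median share of bases covered was 22.7% for H82 and 17.7% for H146. Without regions of 50 kb or wider, the median body share in H82 was 20.4%. When overlap had to reach 50% of both regions, line-only shares were 60.8% in H82 and 55.2% in H146. The H146 line-only share was 13.4% among regions of at least 500 bp and 17.0% with 50 kb to either side. CACGTG was held by 9 H82 and 6 H146 regions in their central 200 bp, and either CACGTG or its variant CACGCG by 62 and 51, against 40 and 33 for CACGTG anywhere. Of the values of single genes, 109 stayed on the same side of the 1.5-fold limit, 19 crossed it, and 2 that had passed it changed direction. The MNT ratio of regions was 0.875 with 10 kb to either side, against 1.5. The MYC difference in covered share was -16.6 percentage points without regions of 50 kb or wider, against 79.5, since these take in the H82 block. A further 8 values under that limit changed direction: 5 of MAX, the MXD3 ratio of regions (0.875 against 1.47) and difference in share (-0.0970 against 1.02 points) among regions of at least 500 bp, and the MYC difference in body share without regions of 50 kb or wider (-68.7 against 31.3 points). The other causes were not tested. The canonical start as TSS, which finds all 10 genes open in both lines, and the shares without MGA were chosen after seeing the data.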
